A study of Homo sapiens with 6 samples.

Results

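The 10 genes described here are transcription factors and RNA-binding proteins that set the balance between epithelial and mesenchymal cell states. They were taken by name, as ZEB1, ZEB2, SNAI1, SNAI2, TWIST1, TWIST2, ESRP1, ESRP2, GRHL2 and OVOL2, with every probe set annotated to 1 of them and to no other gene. That gave 19 probe sets for 9 of the 10 genes, out of 41091 probe sets that name 1 of 19775 genes on the array. ESRP2 had no probe set annotated to it alone and was not analysed here.

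Epithelial-mesenchymal transition (EMT) is the switch by which epithelial cells loosen their junctions and take on a migratory shape. The ZEB, SNAIL and TWIST factors drive it, the ZEB and SNAIL proteins by binding E-box sequences and repressing E-cadherin and other junction genes. GRHL2 and OVOL2 maintain the epithelial state and repress ZEB1, and ESRP1 and ESRP2 keep the epithelial splice forms of their target transcripts. In breast cancer lines the invasive, mesenchymal-like subtype is known for ZEB1 and for the loss of ESRP1, GRHL2 and OVOL2. In the neural crest and the melanocytes that come from it, SNAI2 and ZEB2 are part of normal development.

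The study put 6 one-colour Affymetrix arrays on total RNA from 2 human cultures. The wtCopFry group held 3 arrays of 231wCFry cells, which are by label a clone made from MDA-MB-231 by stable transfection with the wild-type Fry cDNA of the Copenhagen (COP) rat and puromycin selection. The labels say that this 1 clone was picked for a Fry level close to that of the mammary epithelial line MCF10A, and they describe no clone with an empty vector. The not_transfected group held 3 arrays of parental MDA-MB-231, an established breast tumour line that lacks the oestrogen receptor and is of the mesenchymal-like subtype. Both were grown as monolayers in the same medium. Passage number varied within each line and is not given per sample, and the labels name no separate cultures, so p-values measure only the spread between these arrays, which may be technical, and not that between clones. The values are MAS5 signals in arbitrary units, and 3 arrays per group limit the precision of each one.

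The arrays labelled wtCopFry did not read like the not_transfected arrays in markers of cell type. SOX10, a transcription factor of neural crest and melanocytes, averaged 1395 ± 22.3 on the wtCopFry arrays and 0.43 ± 0.32 on the not_transfected arrays (SD, n = 3 each), and S100B averaged 1770.1 ± 93.3 in wtCopFry and 0.70 ± 0.87 in not_transfected. Of 7 measured melanocyte and neural crest markers 6 were higher and none lower in limma, and their summed signal was 5005 to 5470 on the wtCopFry arrays and 385 to 469 on the not_transfected arrays. PMEL was not called, MLANA and TYR averaged 35.5 and 25.5 in wtCopFry, and MITF averaged 399 in not_transfected. Of 7 epithelial markers 6 were lower, with sums of 1523 to 1639 in wtCopFry and 6353 to 7097 in not_transfected. A probe set was tested only with a mean signal of at least 5.87 over the 6 arrays. SOX10, S100B, MLANA and TYR reached that filter only through wtCopFry, and EPCAM, KRT19 and CLDN7 only through not_transfected. Their calls therefore add little to these counts. Of 5 mesenchymal markers 3 were higher and 1 lower (CDH11), with sums of 9860 to 11454 in wtCopFry and 6218 to 6552 in not_transfected. Among them CDH2 averaged 1849 ± 266 in wtCopFry and 43.1 ± 2.84 in not_transfected. Of 4 luminal and basal breast markers only GATA3 was tested, and it was lower (72.0 ± 6.16 in wtCopFry and 90.7 ± 2.70 in not_transfected). Over all 13630 genes tested, 34.1% were higher and 33.1% lower. CDKN2A, which MDA-MB-231 is known to have lost by deletion, averaged 874 ± 56.3 on the wtCopFry arrays and 0.53 ± 0.49 on the not_transfected arrays, and it was singled out after its values were seen. Of 3 leukocyte and 3 endothelial markers, PTPRC, CD3E, CDH5 and VWF averaged at most 5.7 in each group, LYZ was higher (18.7 ± 4.83 in wtCopFry and 8.53 ± 3.35 in not_transfected) and PECAM1 lower (9.17 ± 3.91 in wtCopFry and 209.8 ± 58.4 in not_transfected). Whether the arrays labelled wtCopFry come from MDA-MB-231 cells was not tested, so a difference below is one between 2 sets of arrays and is not assigned to Fry.

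The ZEB factors are shown first with sequences, because ZEB1 and ZEB2 differed in opposite directions. RefSeq promoter windows (GRCh38.p14) were used for 3 of the 10 genes, ZEB1, ZEB2 and TWIST2. Windows on the chromosome of SNAI2, ESRP1 and GRHL2 were left out for the 10 genes and kept among those of all genes. SNAI2, ESRP1 and GRHL2 were therefore not searched. The 250 bases before the start site were searched for the E-box CAGGTG, on both strands (CACCTG on the other), the site that ZEB and SNAIL proteins bind. It was found in 2 of 7 ZEB1 windows and not in the ZEB2 or TWIST2 window, against 17.5% of 35116 windows of all genes. More windows were searched for ZEB1 than for ZEB2 or TWIST2, so these counts do not compare the genes. The ZEB1 window with 2 matches, chr10:31318966-31319215 on the plus strand, and the ZEB2 window, chr2:144520120-144520369 on the minus strand, are given 5′ to 3′ with the E-box in capitals.
ZEB1: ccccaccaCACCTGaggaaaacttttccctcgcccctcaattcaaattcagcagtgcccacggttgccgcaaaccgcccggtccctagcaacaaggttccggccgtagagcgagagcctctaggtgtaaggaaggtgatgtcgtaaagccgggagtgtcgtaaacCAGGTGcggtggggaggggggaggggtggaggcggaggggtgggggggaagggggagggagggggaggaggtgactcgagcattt
ZEB2: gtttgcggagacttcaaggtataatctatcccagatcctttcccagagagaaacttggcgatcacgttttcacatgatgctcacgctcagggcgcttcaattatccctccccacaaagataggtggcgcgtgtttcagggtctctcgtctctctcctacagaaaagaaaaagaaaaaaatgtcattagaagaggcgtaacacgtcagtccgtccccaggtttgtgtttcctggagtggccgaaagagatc
A match is a stretch of letters in these windows and not a measured binding site.

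Both ZEB transcripts are also known targets of the miR-200 family, whose seeds (bases 2 to 8, in capitals) fall into 2 groups that differ at 1 position. The mature sequences are from RefSeq, GRCh38.p14.
hsa-miR-200b-3p: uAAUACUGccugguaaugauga
hsa-miR-200c-3p: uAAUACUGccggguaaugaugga
hsa-miR-429: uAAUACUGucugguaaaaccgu
hsa-miR-200a-3p: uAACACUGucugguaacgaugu
hsa-miR-141-3p: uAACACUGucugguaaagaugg
The first 3 share the seed AAUACUG and the others the seed AACACUG. The array did not measure these miRNAs. MIR200CHG, named as the host transcript of miR-200c, read 4.2, 2.5 and 0.7 on the wtCopFry arrays and 6.9, 2.3 and 0.1 on the not_transfected arrays. Its probe set is of a type prone to cross-hybridise, and it was dim and overlapping in both groups. It does not stand for the whole family. While miR-200c and miR-141 lie on chromosome 12, miR-200b, miR-200a and miR-429 lie on chromosome 1, and no host transcript was read for them.

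TWIST1, a basic helix-loop-helix factor of mesoderm and neural crest, differed most among the 9 genes. It read 1056.6, 1013.5 and 810.5 on the wtCopFry arrays and 1.1, 2.5 and 1.5 on the not_transfected arrays. Every not_transfected array lay at or below the array's own highest value among 27 bacterial control probe sets for which no RNA was spiked in (2.5 to 4.9 over the 6 arrays), a level taken here as background. Against that level TWIST1 was at least 278-fold higher in wtCopFry, and at least 85.9-fold higher against the array medians (10.4 to 12.1). On log2(signal + 16), the scale of every log2 value here, the difference was 5.78 (SE 0.11, limma Benjamini-Hochberg adjusted p = 4.50e-10). In bulk RNA, fewer cells with a transcript and less of it per cell cannot be told apart, and the same holds for each gene below. The background for such a call is wide, since 67.1% of 13630 genes tested passed at an adjusted p under 0.05, 34.1% higher and 33.1% lower, and 23.2% passed with a log2 difference of at least 1 in size.

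TWIST2, its close relative, read 4.8, 1.9 and 4.9 on the wtCopFry arrays and 3.3, 2.9 and 7.9 on the not_transfected arrays. The groups overlapped, and both TWIST2 probe sets were too dim for the filter on low values (a mean signal of 5.87 over the 6 arrays). Without the filter the difference of the brighter one was -0.055 (95% interval -0.32 to 0.21, limma adjusted p = 0.78). The other TWIST2 probe set lay at or below the bacterial controls on all 6 arrays.

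ZEB1, a zinc finger and homeodomain repressor, fell in wtCopFry on each of its 4 probe sets, where 62.6% of 32771 probe sets tested passed in either direction. The brightest read 313.6, 319.8 and 315.5 on the wtCopFry arrays and 972.1, 1108.6 and 1192.2 on the not_transfected arrays. The groups were far apart, and the wtCopFry arrays lay within a few units of each other. The log2 difference was -1.73 (SE 0.10, limma adjusted p = 4.64e-07), a ratio of mean signals of 0.29. ZEB1 was thus lower but not absent in wtCopFry. The other 3 ZEB1 probe sets had differences of -1.35, -0.90 and -0.84, and the dimmest of them read 4.1, 3.6 and 3.3 in wtCopFry against 15.2, 21.6 and 26.0 in not_transfected. With dim probe sets the added 16 makes the log2 difference smaller, so these values do not rank the probe sets by size of change.

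ZEB2, the paralog of ZEB1 that binds the same E-boxes, moved the other way. Its brightest probe set read 564.8, 613.4 and 629.8 on the wtCopFry arrays and 172.7, 137.9 and 172.4 on the not_transfected arrays, with no overlap. The log2 difference was 1.81 (SE 0.11, limma adjusted p = 6.28e-07). Of its 5 probe sets 3 were tested, and all 3 rose. A second read 265, 254 and 248 against 27.7, 26.0 and 40.2 in not_transfected, a log2 difference of 2.53 (adjusted p = 1.28e-07). One more read 67.1, 90.2 and 62.3 against 7.3, 7.7 and 5.3 in not_transfected. The remaining pair did not pass the filter and read at most 7.9 on any array. Within each array, log2 ZEB2 minus log2 ZEB1 was 0.82, 0.91 and 0.96 in wtCopFry and -2.39, -2.87 and -2.68 in not_transfected. These are differences between probe sets with unequal response, so only their shift between the groups is read, and no test was made of it.

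**Figure D1:**
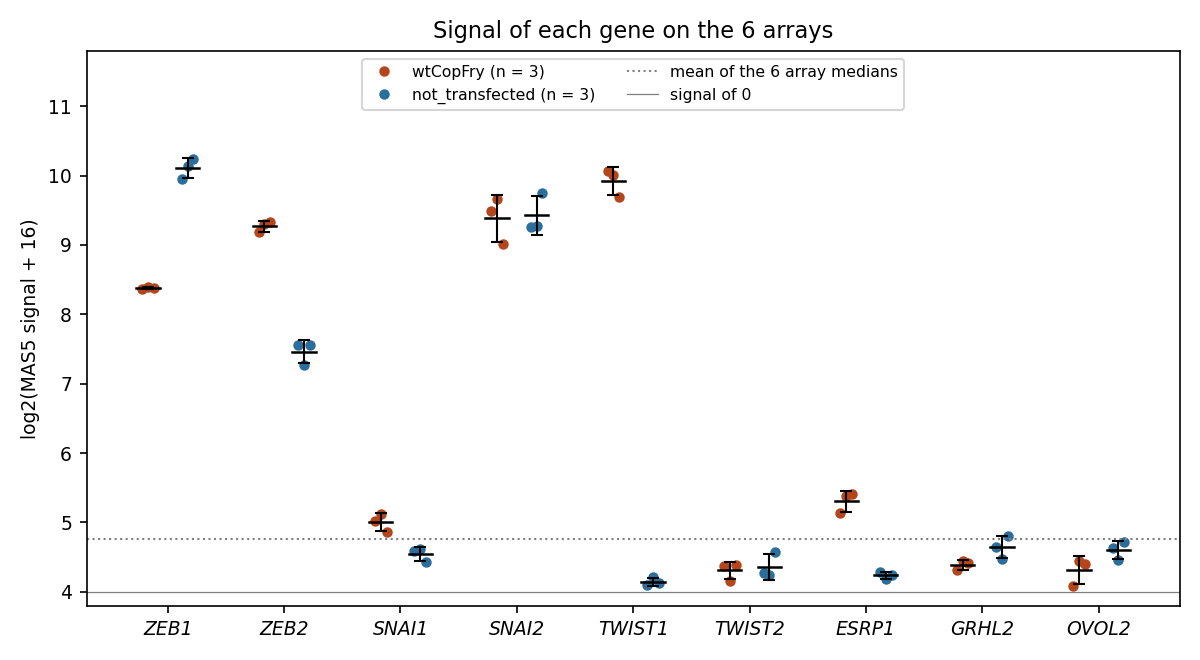
Signal of the 9 measured genes on each array, as log2(MAS5 signal + 16), with wtCopFry left of not_transfected. Points are arrays, bars the mean ± SD of 3 arrays, the dotted line the mean of the 6 array medians and the solid line a signal of 0. TWIST1 stands at background in not_transfected, ZEB1 and ZEB2 are separated in opposite directions, SNAI2 overlaps, and TWIST2, GRHL2 and OVOL2 lie near or below the array medians.

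SNAI2, the SNAIL-family repressor also called Slug, was bright in both groups and was not called. It read 700.8, 790.8 and 499.7 on the wtCopFry arrays and 598.9, 599.9 and 845.9 on the not_transfected arrays. The third wtCopFry array was the lowest of the 6 and the third not_transfected array the highest. The log2 difference was -0.043 (SE 0.19, limma adjusted p = 0.85) with a 95% interval of -0.46 to 0.38, which as a ratio of (signal + 16) runs from 0.73 to 1.30. A difference within that range cannot be seen with these arrays.

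SNAI1, the other SNAIL repressor, read 16.3, 18.8 and 13.1 on the wtCopFry arrays and 8.0, 8.5 and 5.6 on the not_transfected arrays. The groups did not overlap, and SNAI1 passed with a log2 difference of 0.45 (SE 0.10, limma adjusted p = 0.0036). The not_transfected values all lay below the array medians and above the bacterial controls, so the rise is one between dim signals. With 64 added to the signal instead of 16 the log2 difference was 0.17, and with 1 added 1.03. SNAI1 messenger and protein are both known to be short-lived.

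ESRP1, an RNA-binding protein that keeps epithelial splice forms, was the epithelial gene of the set that rose. It read 19.1, 25.7 and 26.4 on the wtCopFry arrays and 3.5, 2.1 and 3.0 on the not_transfected arrays, where 2 of 3 arrays lay at or below the bacterial controls. The log2 difference was 1.07 (SE 0.10, limma adjusted p = 1.51e-05). The second ESRP1 probe set, removed by the filter, read 3.0, 7.5 and 11 on the wtCopFry arrays and 3.0, 1.7 and 1.9 on the not_transfected arrays, and did not pass without it (0.33, adjusted p = 0.077). Where either probe set lies in the ESRP1 transcript was not determined.

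GRHL2, a grainyhead-family activator of epithelial genes, read 3.8, 5.7 and 5.4 on the wtCopFry arrays and 9.1, 6.3 and 12.0 on the not_transfected arrays. Its log2 difference of -0.26 did not pass (limma adjusted p = 0.061). It passed without the second not_transfected array (-0.34, adjusted p = 0.026), with a pseudocount of 1 (-0.74, adjusted p = 0.042) and with quantile normalization (-0.24, adjusted p = 0.047). OVOL2, a zinc finger repressor of ZEB1, read 0.9, 5.8 and 5.2 on the wtCopFry arrays and 8.9, 5.9 and 10.3 on the not_transfected arrays. It did not pass either (-0.29, adjusted p = 0.065), except without the second not_transfected array (-0.37, adjusted p = 0.044). The second OVOL2 probe set read at most 5.0 on any array. GRHL2 and OVOL2 lay below the median of every wtCopFry array, and of every not_transfected array, so that these are values of dim probe sets in both groups.

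Of the 8 genes that passed the filter, 4 rose (ZEB2, SNAI1, TWIST1 and ESRP1), 1 fell (ZEB1) and 3 did not pass (SNAI2, GRHL2 and OVOL2). TWIST1 and ESRP1 reached the filter only through their wtCopFry signal, so their passing the test adds little. The other 6 of the 8 would have reached it on their not_transfected mean. GRHL2 and OVOL2 reached it only through that group (wtCopFry means 4.97 and 3.97), so the fits in which they passed add little. The same limit holds for genes named below with a mean under the filter in 1 group, such as PRRX1, PRKD1, KRT19, CDH11 and SOX9. The groups did not overlap in 7 of these 8 genes, and they did not overlap in 73.1% of all genes tested. With so wide a background, neither count is a result about these genes.

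**Figure D2:**
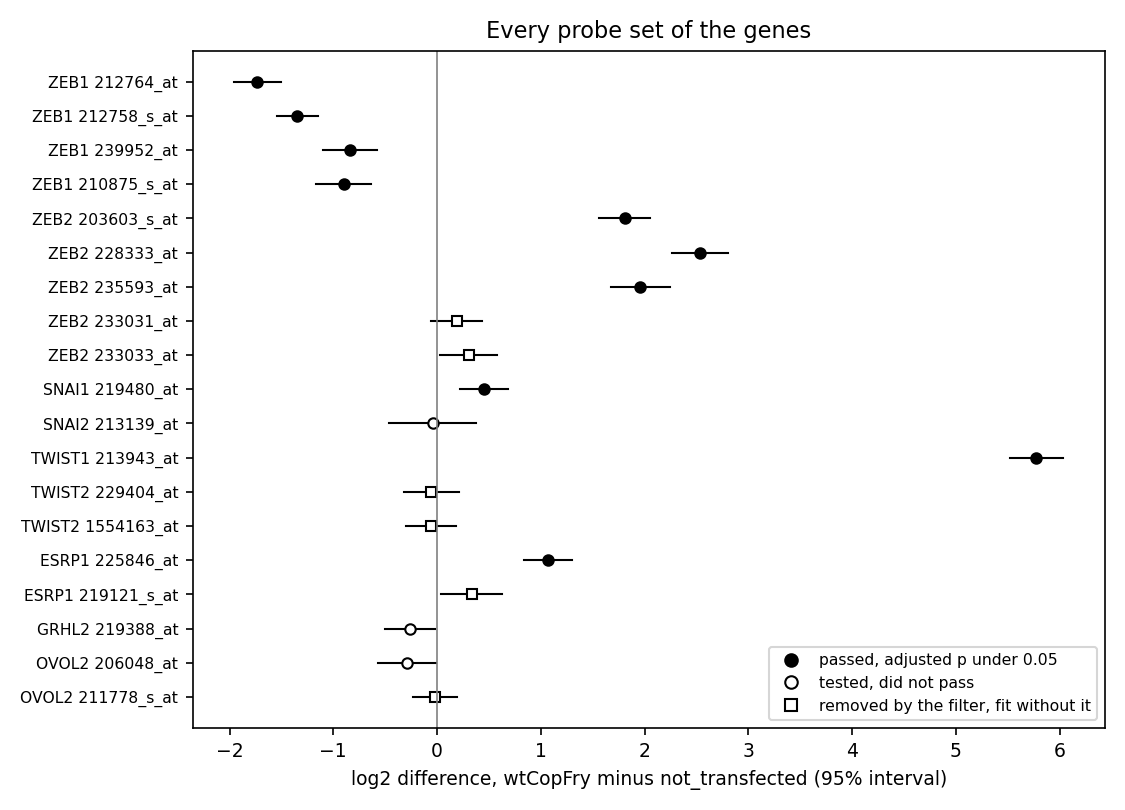
Log2 difference, wtCopFry minus not_transfected, of each of the 19 probe sets with its 95% interval from limma. Filled circles passed, open circles were tested and did not pass, and squares are probe sets below the filter, fitted without it. All 4 ZEB1 probe sets lie left of 0 and the 3 tested ZEB2 probe sets right of 0.

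By distance over the 6 arrays on log2(signal + 16), the genes nearest to TWIST1 were PRRX1 (distance 0.27), CDKN2A (0.34) and APOD (0.48). PRRX1, a homeobox factor of mesenchyme, averaged 942 ± 109 on the wtCopFry arrays and 2.33 ± 1.19 on the not_transfected arrays. Nearest to ZEB1, the member with the largest fall, were SETD5 (0.24), GBP3 (0.27) and CYBRD1 (0.32). SETD5, a chromatin protein, averaged 309 ± 16.6 on the wtCopFry arrays and 1014 ± 45 on the not_transfected arrays. The distance measures likeness of level and of difference on these arrays only.

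Genes that carry out the program of these factors were read in lists and are set against the shares of all genes tested (34.1% higher, 33.1% lower, median log2 difference 0.0082). Of 26 tested epithelial genes that ZEB, SNAIL or TWIST factors are known to repress, 2 rose, 18 fell and 6 did not pass, with a median of -1.31. KRT19, a keratin of simple epithelia, stood at background in wtCopFry and was at least 474-fold lower, or at least 153.6-fold with the floor at the array medians. PKP2, a desmosomal plaque protein, averaged 2.07 ± 0.38 on the wtCopFry arrays and 268 ± 15.4 on the not_transfected arrays (at least 75.9-fold lower, or at least 24.6-fold against the array medians). SPINT2, an inhibitor of surface proteases, averaged 3.5 ± 2.0 in wtCopFry and 1092 ± 61.5 in not_transfected, and KRT8 44.7 ± 3.28 in wtCopFry and 1543 ± 219 in not_transfected. These 4 passed (adjusted p at most 1.93e-09). CDH1, which encodes E-cadherin, averaged 6.73 ± 1.66 on the wtCopFry arrays and 9.73 ± 3.29 on the not_transfected arrays and did not pass (adjusted p = 0.21), so it was dim in both. The 2 that rose were CGN and PATJ, both of tight junctions. Of 11 tested genes that GRHL2 or OVOL2 are known to activate, 4 rose, 5 fell and 2 did not pass, a median of -0.41. Those that rose were ERBB3, ESRP1, GRHL1 and TERT, and those that fell SFN, EPCAM, CLDN4, SPINT1 and ST14. Several of these stand in the epithelial list too. ESRP1 was already counted among the genes described here, and ERBB3 stands in the neural crest and melanocyte list as well. SFN averaged 54.6 ± 4.1 on the wtCopFry arrays and 1467 ± 56.9 on the not_transfected arrays, and ERBB3 816 ± 55.8 in wtCopFry and 20.2 ± 6.05 in not_transfected. Epithelial marker sums and the melanocyte sums given above moved with the groups as well, and their part in these counts was not tested.

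Mesenchymal effector genes split. Of 28 tested, 11 rose, 12 fell and 5 did not pass, with a median of -0.17. The matrix protein SPARC averaged 2249 ± 37.9 on the wtCopFry arrays and 48.4 ± 7.09 on the not_transfected arrays, and the collagen chain COL5A2 600.1 ± 43.9 in wtCopFry and 13.9 ± 0.98 in not_transfected. CDH11, a mesenchymal cadherin, stood at background in wtCopFry and was at least 220-fold lower (at least 71.2-fold against the array medians), and LOX, the collagen cross-linking enzyme, averaged 3.93 ± 0.74 on the wtCopFry arrays and 826 ± 81.2 on the not_transfected arrays. All 4 passed (adjusted p at most 6.67e-10). VIM, the mesenchymal filament vimentin, averaged 3954 ± 521 in wtCopFry and 3463 ± 200 in not_transfected and did not pass (adjusted p = 0.18).

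Relatives and partners of the factors moved in both directions. Of 16 tested, 9 rose, 5 fell and 2 did not pass, with a median of 0.34. TCF4, an E protein that pairs with TWIST proteins and others of their class, averaged 189 ± 11.5 on the wtCopFry arrays and 7.33 ± 1.4 on the not_transfected arrays (log2 difference 3.13). SOX9, a factor of neural crest and of mammary progenitors, averaged 3.47 ± 2.68 in wtCopFry and 1446 ± 125 in not_transfected. EHF, an epithelial ETS factor, averaged 87.6 ± 12.6 in wtCopFry and 740.1 ± 116 in not_transfected. These 3 and PRRX1 passed (adjusted p at most 1.12e-07). ID proteins, which hold E proteins off DNA, did not move together, since ID4 and ID2 rose, ID1 fell and ID3 did not pass.

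**Figure D3:**
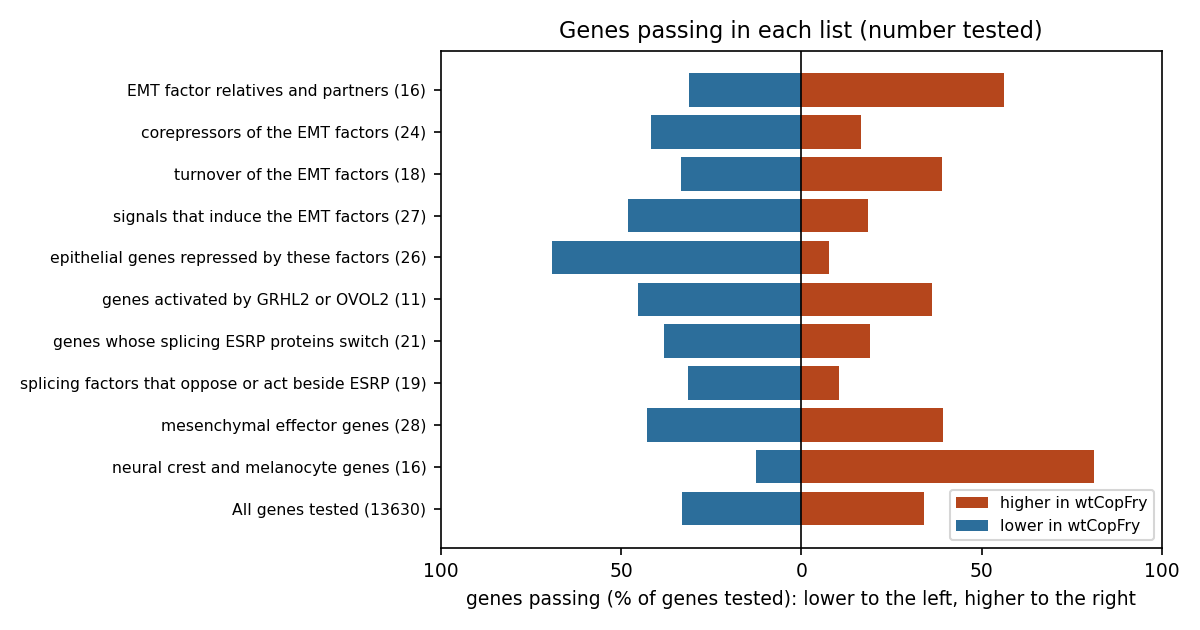
Share of the tested genes of each list that passed, as percent of genes tested (the number in brackets), with those higher in wtCopFry to the right and those lower to the left. The last bar is all 13630 genes tested. The epithelial list leans to the left, with 18 of 26 lower, and the neural crest and melanocyte list to the right, with 13 of 16 higher. The neural crest and melanocyte list was written with the leading genes of these data known. Without the filter 15 of its 22 genes were higher and 2 lower.

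Corepressors and modifiers that the factors recruit passed in 58.3%, against 67.1% of all genes tested. Of 24 tested, 4 rose, 10 fell and 10 did not pass, a median of -0.17. RCOR1, the corepressor CoREST, averaged 202 ± 31.7 on the wtCopFry arrays and 707 ± 47.5 on the not_transfected arrays, and EZH2, the Polycomb methyltransferase, 467 ± 17.9 in wtCopFry and 1106 ± 72.3 in not_transfected. HDAC3 had a log2 difference of -1.33, and CHD4, a remodeller of the NuRD complex, rose by 0.70. The adjusted p of these 4 was at most 1.58e-04. Of 18 tested genes of factor turnover, 7 rose, 6 fell and 5 did not pass, a median of 0.16. The kinase PRKD1, which phosphorylates SNAI1, averaged 172 ± 42 on the wtCopFry arrays and 1.47 ± 2.28 on the not_transfected arrays. The ubiquitin ligase subunit BTRC averaged 117 ± 30.8 in wtCopFry and 315 ± 37.5 in not_transfected, the kinase LATS2 had a log2 difference of -0.99 and the kinase subunit CSNK2A1 one of 0.84. Each of these passed (adjusted p at most 9.21e-05).

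Among signals known to induce the factors, 5 of 27 tested rose, 13 fell and 9 did not pass, a median of -0.13. The ligand WNT5A averaged 417 ± 25.7 on the wtCopFry arrays and 15.4 ± 4.02 on the not_transfected arrays. IL6 averaged 8.3 ± 2.71 in wtCopFry and 267 ± 27.9 in not_transfected, BMP4 23.9 ± 9.26 in wtCopFry and 698 ± 134 in not_transfected, and the receptor EGFR 37.3 ± 4.88 in wtCopFry and 391 ± 77.1 in not_transfected. The adjusted p of these 4 was at most 1.63e-07. TGFB1, the best-known inducer of EMT, averaged 9.6 ± 1.91 in wtCopFry and 105 ± 17 in not_transfected. Of the genes that carry its signal, SMAD2 and SMAD3 did not pass. SMAD4 rose in wtCopFry (log2 difference 0.51, limma adjusted p = 0.0039).

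Downstream of ESRP1, 21 genes whose splicing ESRP proteins are known to switch were tested for total signal. Of these 4 rose, 8 fell and 9 did not pass, a median of -0.23. SLC37A2 averaged 38.9 ± 1.73 on the wtCopFry arrays and 137 ± 8.33 on the not_transfected arrays, and the kinase SLK 201 ± 40.4 in wtCopFry and 475 ± 31.5 in not_transfected. LSR, a protein of tricellular junctions, averaged 66.6 ± 5.49 in wtCopFry and 26.3 ± 6.01 in not_transfected, and NUMB 12.3 ± 3.31 in wtCopFry and 32.3 ± 0.80 in not_transfected. The adjusted p of these 4 was at most 1.39e-04. FGFR2, a classic ESRP target, averaged 926 ± 28.7 in wtCopFry and 924 ± 73.9 in not_transfected and did not pass (adjusted p = 0.97). Of 19 tested splicing factors that oppose or act beside ESRP, 2 rose (CELF2 and MBNL2), 6 fell and 11 did not pass, a median of -0.095. RBM47, an epithelial RNA-binding protein, averaged 7.33 ± 2.6 on the wtCopFry arrays and 363 ± 106 on the not_transfected arrays (log2 difference -3.99, adjusted p = 1.16e-07). RBM24 had a log2 difference of -1.85, and CELF2 one of 1.69 (adjusted p at most 3.61e-05). QKI did not pass, and RBFOX2 was lower by a log2 difference of -0.65.

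Of 16 tested neural crest and melanocyte genes, a list written with the leading genes of these data known, 13 rose, 2 fell (SOX9 and NGFR) and 1 did not pass, a median of 1.48. Besides SOX10 and S100B, PAX3, a neural crest factor upstream of MITF, averaged 883 ± 82.7 on the wtCopFry arrays and 1.83 ± 0.40 on the not_transfected arrays, and GPM6B 1133 ± 33.3 in wtCopFry and 11 ± 0.51 in not_transfected. MITF, the melanocyte master factor, averaged 1129 ± 65.3 in wtCopFry and 399 ± 39.8 in not_transfected. All 5 passed (adjusted p at most 1.86e-06). Their part in the values of TWIST1, ZEB1, ZEB2, SNAI1 and ESRP1 was not tested.

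**Figure D4:**
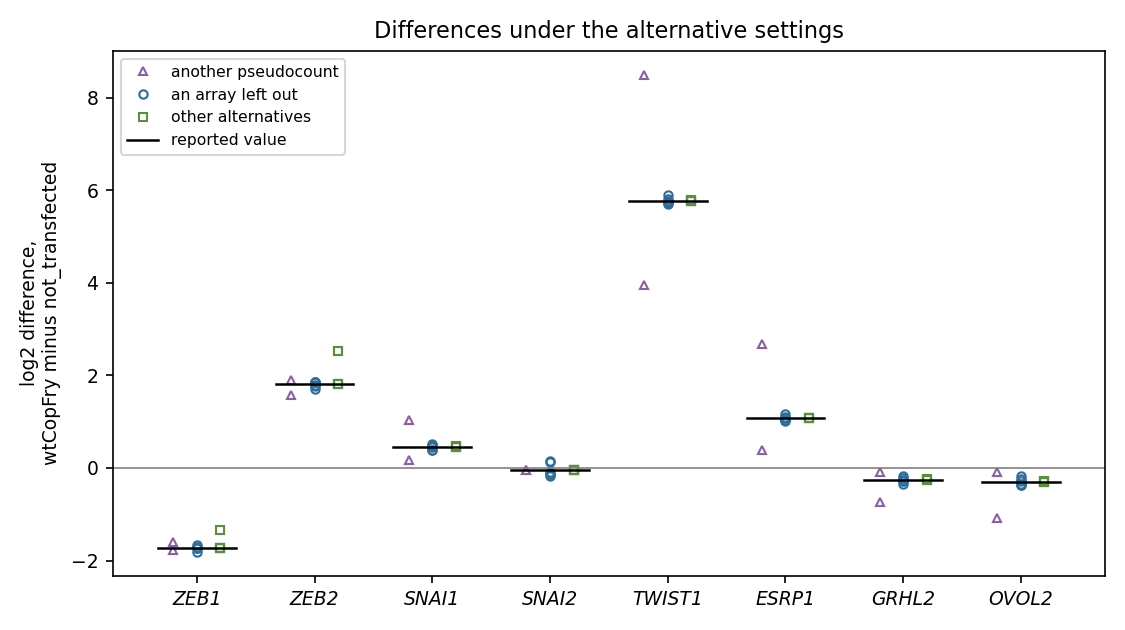
Log2 difference, wtCopFry minus not_transfected, of the 8 tested genes under each alternative setting, with the reported value as a line. Triangles are other pseudocounts, circles fits without 1 array and squares the other alternatives. TWIST1 ran from 3.95 to 8.5 with the pseudocount, and ZEB1 stayed below 0 and ZEB2 above 0 in all 14 alternatives. Another filter or the replicate block leaves a log2 difference unchanged.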

How the data were processed

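Total RNA was amplified and labelled with biotin per the labels' protocols, and the authors deposited linear signal intensity values. The submitters' processing notes name MAS5 as the tool. Its version is not given in the sources used here. Trimmed means were equal over arrays, so no further normalization was applied. MAS5 subtracts mismatch signal, so dim values approach 0 and their ratios are unstable.

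Probe sets were named from GEO's platform annotation (41091 of 54613 non-control probe sets name 1 gene, 41037 of these found in a GRCh38.p14 gene table). Probe sets with a mean signal at or above the 40th percentile (5.87) were tested on log2(signal + 16) with limma 3.58.1 in R 4.3.3, 32771 in all, adjusted by Benjamini-Hochberg at 0.05, and a gene was read by its brightest tested probe set. The fit was tested on simulated data in which far fewer probe sets changed than passed here, so that gives no error rate for these data. Figures used matplotlib 3.10.9.

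The genes, lists and tests were chosen with earlier results of these data known. Named are the 10 genes, up to 4 genes of smallest p per list, and the 3 genes nearest to the largest rise and fall. Others named were picked after their values were seen. These were CDKN2A, CDH1, CDH2, VIM, MITF, TGFB1, FGFR2, NGFR, the SMAD, ID, QKI and RBFOX2 genes, MIR200CHG and small groups of a list. Deviations of same-numbered arrays correlated only weakly (0.070, 0.074 and 0.19).

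The 3'-to-5' ratio of the GAPDH control was 1.24 to 1.33 on the wtCopFry arrays and 1.36 to 1.39 on the not_transfected arrays. That of the actin control was higher, 2.45 to 2.65 on the wtCopFry arrays and 2.59 to 3.00 on the not_transfected arrays. No pair of replicate arrays had over 2.15% of its probe sets at equal values.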

Additional observations from a re-analysis of the deposited data

How the results depend on the processing

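Over 14 alternatives, 102 of 108 log2 differences of the tested genes kept their direction and their side of the threshold, and 4 values of GRHL2 and OVOL2 came to pass. The other 2 changed sign. SNAI2, not called in any fit, stood at -0.043 over all arrays. It stood at 0.14 without the third wtCopFry array and at 0.12 without the third not_transfected array. Its range was -0.18 to 0.14 over the fits with 1 array left out. Part of the 102 was fixed in advance. Another filter or the replicate block cannot alter a log2 difference, only its p-value. A gene with 1 tested probe set repeats its reported value where the probe set of second highest mean is used. The count of genes that fell, 1, became 2 with a pseudocount of 1 or quantile normalization, and ran from 1 to 3 when 1 array was left out, with 3 without the second not_transfected array. The count that rose, 4, became 2 with a 60th percentile filter (a mean signal of 33.2), which left 4 genes to test and removed SNAI1 and ESRP1, and it was 4 in each fit with 1 array left out. Over all genes the counts ran from 3685 to 4755 higher and 3675 to 4662 lower. With the floor at the array medians, each at-least fold given above was about 3 times smaller (85.9-fold for TWIST1).

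With the 60th percentile filter the GRHL2 and OVOL2 list had 4 genes to test, with 1 higher and 3 lower, and the neural crest list 12, with 1 lower. Without probe sets whose ID marks a risk of cross-hybridisation, fewer genes could be tested in most lists. Corepressors had 1 higher and 6 lower of 14, inducing signals 3 higher of 20, the epithelial list 0 higher and 11 lower of 16, ESRP splicing targets 2 higher of 18, mesenchymal genes 5 lower of 18 and the neural crest list 1 lower of 14. Splicing factors had 4 higher of 20 there, and 4 higher with the probe set of second highest mean.

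The replicate numbers of the titles gave no clear pairing of the arrays. Correlations of same-numbered deviations were 0.070, 0.074 and 0.19, and 1 wtCopFry array correlated best with another number. Those of differently numbered arrays ran from -0.13 to 0.079, and no test was made of the difference. With the replicate number as a block, 4 of the genes rose and 1 fell, as without it. Over all genes 4673 rose and 4537 fell, against 4645 and 4506 without the block, and in 4 lists 1 more gene passed (8 turnover genes higher, and 19 epithelial, 6 GRHL2 or OVOL2 and 3 neural crest genes lower).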

Other observations

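Alternative splice forms can make probe sets of 1 gene move apart, which was looked at for the ESRP splicing targets after the data had been seen. In limma 487 (6.73%) of the 7241 genes read by several tested probe sets had a call in each direction. Of 15 ESRP splicing targets with several tested probe sets, 0 did, and also 0 at an unadjusted p under 0.05. CD44, a hyaluronan receptor with variable exons, had 7 of 11 tested probe sets higher in wtCopFry and none lower, and TCF7L2 had all 6 lower. ENAH, an actin regulator, had 3 of 6 higher. RALGPS2 was not called on its brightest probe set, yet 4 of its 5 were higher. Where these probe sets lie relative to switched exons was not determined, so the values do not measure splicing.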
